A study of Mus musculus with 4 samples.

Results

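Cdx2, Gata2, Gata3 and Tfap2a encode transcription factors associated with the trophoblast, the outer lineage of the early embryo that contributes to the placenta. Their chromatin was examined in mouse rosette stem cells, pluripotent cells between the naive and the primed state. Members were all called H3K4me3 and H3K27me3 regions that overlapped an mm9 window around each gene: chromosome 5 from 148100001 to 148130000 for Cdx2, chromosome 6 from 88130001 to 88170000 for Gata2, chromosome 2 from 9760001 to 9820000 for Gata3 and chromosome 13 from 40800001 to 40840000 for Tfap2a. The windows held 57 of the 76945 regions in the 4 lists. For H3K27me3 they were 5 of the 14575 regions of CGR8 and 6 of the 12511 of R1. For H3K4me3 they were 22 of the 25241 regions of CGR8 and 24 of the 24618 of R1.

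The study profiled both histone marks by chromatin immunoprecipitation and sequencing in rosette stem cells derived from the embryonic stem cell lines CGR8 (strain 129/Ola) and R1 (strain 129). All 4 libraries came from cells that had spent 8 days in N2B27 with LIF, IWP2 at 2 µM, an inhibitor of WNT secretion, and PD325901 at 1 µM, a MEK inhibitor. Each line and mark had 1 library, so the groups were H3K27me3 and H3K4me3 with n = 2 lines, and no genotype or treatment differed within them other than the line. The labels do not name separate cultures, and the lists hold no expression values, so the cell type was not checked against marker genes. The lowest deposited score was 70.6 in CGR8 and 59.4 in R1 for H3K27me3, and 38.5 and 37.3 for H3K4me3. Read totals are not known here, so a place with no region is one where the mark was not detected at the depth used, and absence cannot be read from it. With 1 library per line and mark, a test between lines was not possible. Genes were not tested against each other, since they were chosen with results of these lists known, and the values are descriptions of these libraries.

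As background, Polycomb repressive complex 2 deposits H3K27me3 over silent developmental genes, often starting from CpG-rich promoters. H3K4me3 is placed at the start sites of active genes, and also at many silent CpG-rich promoters, where its presence together with H3K27me3 is called bivalency. Pluripotent cells of the epiblast normally keep the trophoblast programme off. Cdx2 is a homeobox factor required for the trophectoderm and later for the posterior body axis. Gata3 is a zinc-finger factor that acts beside Cdx2 in the trophectoderm, and Gata2 is a related factor of trophoblast giant cells and blood progenitors. Tfap2a is an AP-2 factor present in trophoblast, surface ectoderm and neural crest.

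All 4 members matched the RefSeq promoter table, which lists 6 start sites for them: 1 for Cdx2, 2 for Gata2, 1 for Gata3 and 2 for Tfap2a. One sequence per gene is printed because CpG-rich promoters are known to attract both marks. It is the 250 bases before the start, 5′ to 3′ on the gene's strand, with CG dinucleotides in capitals. For Gata2 and Tfap2a the start with the higher CG count was taken, and for Tfap2a, where both had 10, the one with the higher CpG ratio. The positions are on GRCm38.p6, strand in brackets, and cannot be laid over the mm9 regions below, since no position was converted. A link between CpG content and the marks at these genes was not tested.
Cdx2, chr5:147307250-147307499 (-): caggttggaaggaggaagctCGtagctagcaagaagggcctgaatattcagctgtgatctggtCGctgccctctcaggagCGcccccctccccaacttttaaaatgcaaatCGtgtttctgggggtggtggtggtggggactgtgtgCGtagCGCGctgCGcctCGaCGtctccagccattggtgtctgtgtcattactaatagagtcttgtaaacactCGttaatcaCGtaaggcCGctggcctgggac
Gata2, chr6:88198414-88198663 (+): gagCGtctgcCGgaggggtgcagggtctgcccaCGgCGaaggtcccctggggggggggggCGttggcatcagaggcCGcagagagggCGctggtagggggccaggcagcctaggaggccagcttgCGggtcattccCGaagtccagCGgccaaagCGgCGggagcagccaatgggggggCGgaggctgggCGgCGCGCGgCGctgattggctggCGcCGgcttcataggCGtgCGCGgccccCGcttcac
Gata3, chr2:9878601-9878850 (-): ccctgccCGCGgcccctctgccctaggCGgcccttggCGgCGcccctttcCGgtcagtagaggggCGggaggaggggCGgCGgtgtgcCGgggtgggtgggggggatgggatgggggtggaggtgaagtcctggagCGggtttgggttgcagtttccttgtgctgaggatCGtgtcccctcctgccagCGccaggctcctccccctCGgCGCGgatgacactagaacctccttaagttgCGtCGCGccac
Tfap2a, chr13:40734921-40735170 (-): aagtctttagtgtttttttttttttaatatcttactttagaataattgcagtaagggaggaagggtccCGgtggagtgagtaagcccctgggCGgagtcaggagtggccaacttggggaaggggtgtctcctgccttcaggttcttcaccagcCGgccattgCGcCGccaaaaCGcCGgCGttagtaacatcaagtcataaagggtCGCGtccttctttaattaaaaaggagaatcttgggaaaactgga

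The Cdx2 sequence held 13 CG dinucleotides, the Gata2 sequence 24, the Gata3 sequence 19 and the Tfap2a sequence 10, against a median of 6 over the 32851 promoters of the table. The ratio of observed to expected CpG was 0.690 for Cdx2, 0.741 for Gata2, 0.633 for Gata3 and 0.729 for Tfap2a, against a median of 0.374. Both values were above the median of all promoters at each of the 6 start sites. The other Gata2 start had 22 CG and a ratio of 0.785, and the other Tfap2a start 10 CG and a ratio of 0.563. GC content was 55.2% for Cdx2, 74% for Gata2, 70% for Gata3 and 47.6% for Tfap2a. The printed Tfap2a promoter was thus the only one of these below the median of 52.4%. The other Tfap2a start, with 60.4%, and the other Gata2 start, with 67.2%, were above it. The palindrome GCCNNNGGC, the core bound by AP-2 factors, was found in 3 of the 6 promoters (1 of the 2 of Gata2, that of Cdx2 and that of Gata3) and in 13.7% of all promoters. GATAA, searched on both strands as a core of GATA factor sites, was in none of the 6 and in 22.6% of all, and TATAAA was in none of the 6 and in 12.4%. These are matches of letters within 250 bases, and the shares over all promoters were not matched for GC content.

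The windows of all 4 genes held overlapping regions of both marks in both lines. A gene is said to have both marks in this sense only, since start sites were not placed on the regions. H3K27me3 lay over each gene's window in 1 or 2 regions, of 14.4 to 34.4 kb apart from one of 3.8 kb at Gata2 in R1, and H3K4me3 lay within or beside these in 3 to 8 regions of 0.8 to 7.2 kb. Of the member H3K27me3 regions, 5 of 5 in CGR8 overlapped H3K4me3, while 41.3% of all H3K27me3 regions of that line did. In R1 it was 5 of 6, against 48.8% of all, and the sixth, at Gata2, abutted an H3K4me3 region. Broad regions meet H3K4me3 more often, and among H3K27me3 regions at least 15 kb wide the shares were 71.4% in CGR8 and 83.8% in R1. The members of that width, 4 in each line, all held H3K4me3, a count too small to stand apart from these shares. Seen from H3K4me3, 18 of the 22 member regions of CGR8 overlapped H3K27me3 (28.2% of all H3K4me3 regions of that line did), as did 21 of the 24 of R1 (29.1% of all). Those lying wholly under H3K27me3 were 16 of 22 in CGR8, where 22.5% of all H3K4me3 regions did, and 17 of 24 in R1, where 22.9% did. These H3K4me3 regions lay in only 4 windows, several to an H3K27me3 region, so they are not independent counts. Their contrast with all regions was not tested, and the shares over all regions were not matched for width. Among H3K4me3 regions 0.8 to 1.2 times as wide as the 1.2 kb members, 61.7% in CGR8 and 61.4% in R1 had no H3K27me3. For the widest members, of 7.2 kb in CGR8 and 7.0 kb in R1, 90.9% and 85.1% of such regions had none.

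**Figure D1:**
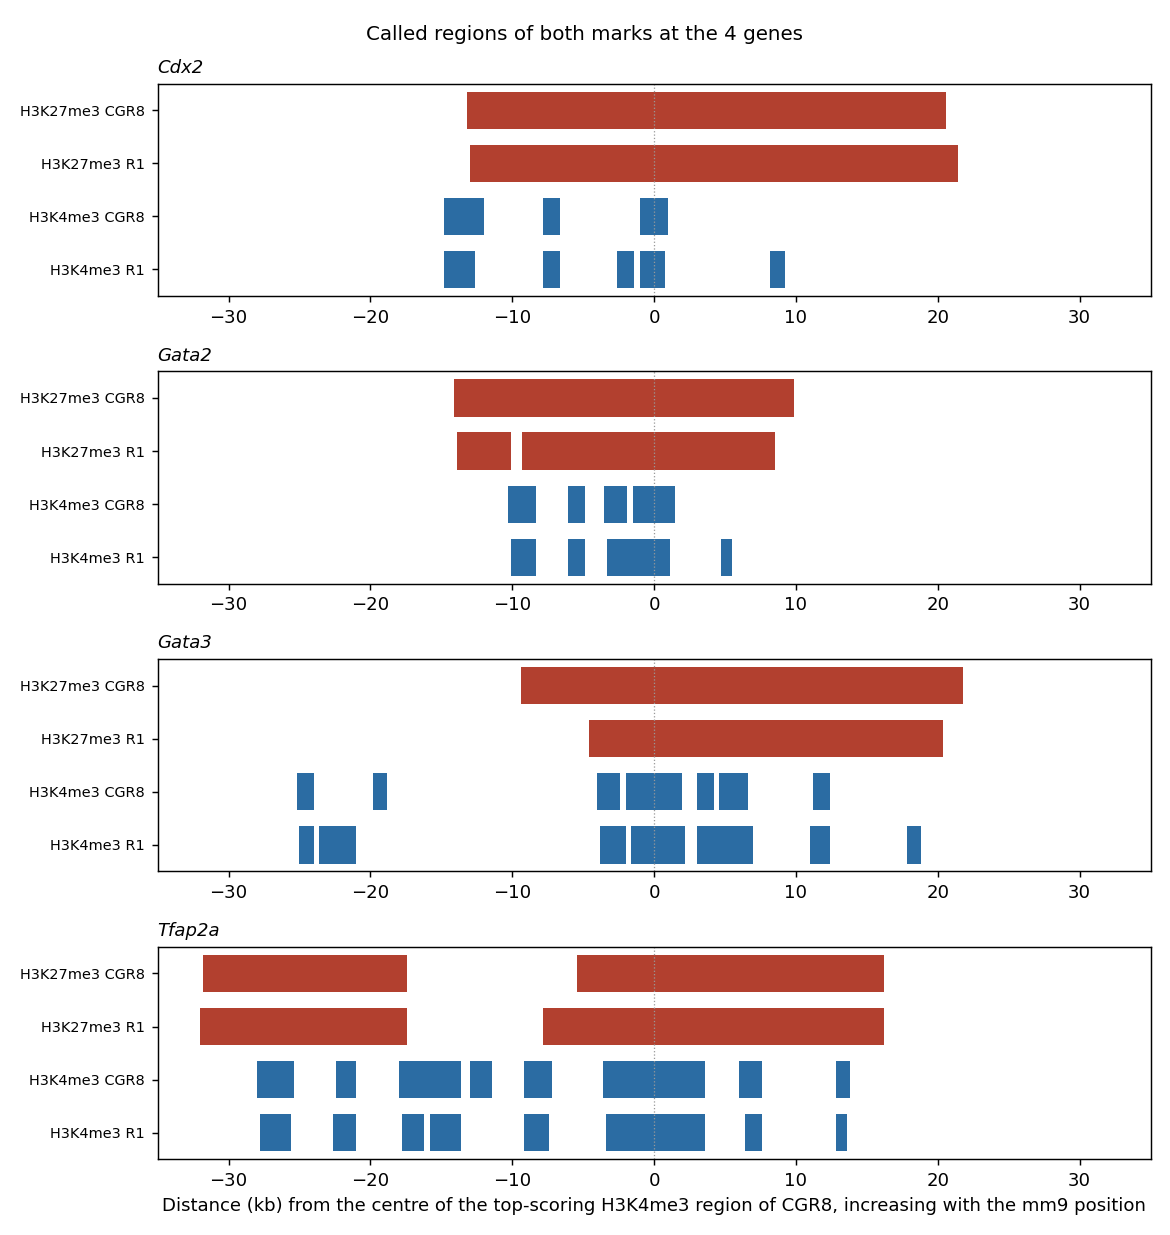
Called regions of H3K27me3 (red) and H3K4me3 (blue) at the 4 genes in each line, with distance in kb from the centre of the top-scoring H3K4me3 region of CGR8 on the horizontal axis. Each gene has H3K4me3 blocks below a broad H3K27me3 block, and at Tfap2a the H3K27me3 is interrupted by a gap of 12 kb in CGR8 and 9.6 kb in R1.

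The presence of both marks did not hold for all 4 genes among strong calls. In the higher-scoring 50% of each list, 2 of the 4 genes (Gata3 and Tfap2a) kept both marks in both lines. All 11 H3K27me3 members were in that upper part. For H3K4me3 it held none of the 3 and 5 regions at Cdx2, and at Gata2 none of the 4 in CGR8 and 1 of the 4 in R1. At Gata3 it held 1 of 7 in each line and at Tfap2a 2 of 8 in each line. Where R1 had its upper-part Gata2 region, CGR8 had 2 regions 400 bp apart, at percentiles 35.8 and 44.6. Whether Gata2 would be kept with these called as a single region was not tested. The share of all regions that keep both marks in the upper part was not computed.

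H3K27me3 was widest as a single region at Cdx2. It ran from 148105201 to 148139000 in CGR8 (33.8 kb, score 3135) and from 148105401 to 148139800 in R1 (34.4 kb, score 2942). By score it ranked 55 in the CGR8 list and 50 in the R1 list, above the regions of the other 3 genes in each line. The 2 calls shared 97.1% of the bases in either, with starts 0.2 kb and ends 0.8 kb apart. They continued 9.0 kb and 9.8 kb past the upper bound of the Cdx2 window. In the GRCm38.p6 gene table the protein-coding neighbours of Cdx2 are Pdx1 and Urad, and whether the region reaches either was not determined on mm9.

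At Gata2, 1 region of 24.0 kb in CGR8 (88135401 to 88159400, score 1902, rank 182) stood where R1 had 2. The R1 regions ran from 88135601 to 88139400 (3.8 kb, score 126, rank 5789) and from 88140201 to 88158000 (17.8 kb, score 1626, rank 193). The gap between them was 800 bp, which is the smallest gap between any neighbouring H3K27me3 regions in either list. An H3K4me3 region of R1 covered 100% of that gap, from 88139401 to 88141200. All bases called in R1 were also called in CGR8, which made up 90% of the bases called in either line.

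At Gata3, H3K27me3 ran from 9790001 to 9821200 in CGR8 (31.2 kb, score 1887, rank 185) and from 9794801 to 9819800 in R1 (25.0 kb, score 1774, rank 169). This was the least alike pair of single regions among the 4 genes, with 80.1% of the bases in either line called in both. The R1 region began 4.8 kb later and ended 1.4 kb earlier, so it lay wholly within the CGR8 one. No other H3K27me3 region came closer to the Gata3 window than 127 kb in CGR8 and 204.8 kb in R1.

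Tfap2a had 2 H3K27me3 regions in each line. The first ran from 40795001 to 40809400 in CGR8 (14.4 kb, score 928, rank 592) and from 40794801 to 40809400 in R1 (14.6 kb, score 944, rank 472). The second, with the higher score, ran from 40821401 to 40843000 in CGR8 (21.6 kb, score 2110, rank 145) and from 40819001 to 40843000 in R1 (24.0 kb, score 2122, rank 120). Outer bounds were the same within 0.2 kb, and the R1 call of the second region began 2.4 kb earlier. Together the Tfap2a regions came to 37.3 ± 1.84 kb (SD, n = 2), against 34.1 ± 0.424 kb at Cdx2, 28.1 ± 4.38 kb at Gata3 and 22.8 ± 1.70 kb at Gata2. In this order the values of the 2 lines did not overlap between neighbouring genes, although Gata2 in CGR8 (24.0 kb) and Gata3 in R1 (25.0 kb) were only 1 kb apart. The order changed with the window. Clipped to the windows, the means were 29.2 kb at Tfap2a, 27.5 kb at Gata3, 24.7 kb at Cdx2 and 22.8 kb at Gata2. With windows extended by 10 kb on each side they were 56 kb at Cdx2, 44.2 kb at Tfap2a, 31.2 kb at Gata2 and 28.1 kb at Gata3. Single lines did not all follow the order of these means. In CGR8 the clipped length was greater at Gata3 than at Tfap2a. The rise at Gata2 on extension came from CGR8 alone, where a region of 16.8 kb was taken in. In R1, Gata2 stayed at 21.6 kb, below Gata3 at 25.0 kb.

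**Figure D2:**
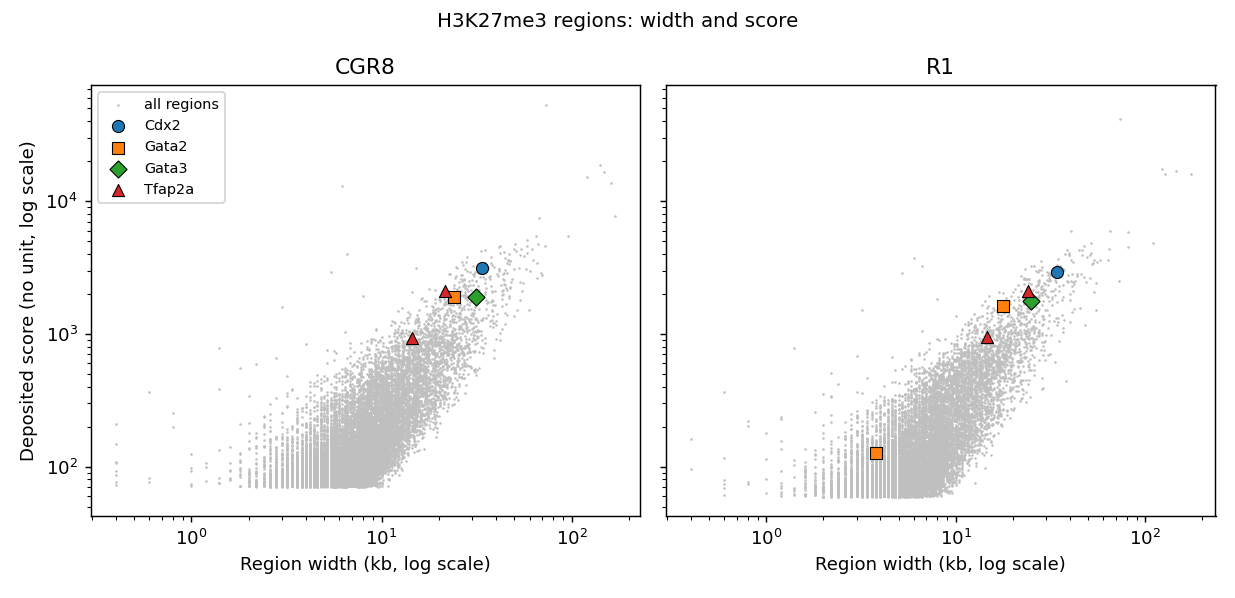
Width in kb and deposited score of every H3K27me3 region (grey) in CGR8 and R1, both axes logarithmic, with the regions at the 4 genes marked. The top region of each gene is at percentiles 98.5 to 99.6 of the score over the whole list, while among regions of similar width Gata3 is at 72.7 and 79.7, and the lone low point is the 3.8 kb region at Gata2 in R1.

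The top H3K27me3 region of each gene stood in the highest 2% of its list by score. Score rises with width, so genes were set against each other per kb. That does not remove all of the effect of width. By score per kb over the whole list, Gata3 was at percentiles 95.4 in CGR8 and 96.9 in R1, above its place among regions of similar width given below. The score per kb of the top region was 92.8 in CGR8 and 85.5 in R1 at Cdx2, 97.7 and 88.4 at Tfap2a, 79.3 and 91.4 at Gata2, and 60.5 and 71.0 at Gata3. Gata3 was thus lowest in each line, while the order of the other genes changed between lines. Among regions of similar width (0.8 to 1.2 times), the Cdx2 region was at percentile 94.6 of the score in CGR8 and 85.7 in R1. The top Gata2 region was at 91.5 and 97.98, the second Tfap2a region at 98.1 and 90.5, and Gata3 at 72.7 and 79.7. The first Tfap2a region was at 95.3 and 91.5.

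The H3K4me3 regions were weaker members of their lists. Below the median score of the list were 19 of the 22 in CGR8 and 20 of the 24 in R1. Their widths ran from 1000 to 7200 bp in CGR8 and from 800 to 7000 bp in R1. Regions found in the other line were 20 of 22 in CGR8, against 89.8% of all H3K4me3 regions, and 19 of 24 in R1, against 92.6% of all. The members' share was near the background in CGR8 and below it in R1. For H3K27me3, all 5 and all 6 members were found in the other line, against 67.1% of all regions in CGR8 and 81.1% in R1. These shares are over whole lists, in which most H3K27me3 members ranked high by score and most H3K4me3 members low. Shares among regions of similar score or width were not computed, so these contrasts cannot be told apart from the members' ranks.

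At Cdx2, H3K4me3 was called in 3 regions in CGR8 and 5 in R1. The top one, from 148117401 to 148119400 in CGR8 (2.0 kb, score 177) and to 148119200 in R1 (1.8 kb, score 182), was at percentile 40.1 of its list in CGR8 and 39.5 in R1. A region from 148110601 to 148111800 had the same bounds in both lines. A region that began at 148103601 in both lines lay across the lower edge of H3K27me3, with 42.9% of its bases under it in CGR8 and 18.2% in R1. The regions of R1 alone, from 148115801 to 148117000 and from 148126601 to 148127600, had scores of 66.0, at percentile 18.5 of the R1 list, and 38.9, at percentile 1.56. Cdx2 also had the longest H3K27me3 stretch with no H3K4me3 in it, 19.6 kb at the upper end in CGR8 and 12.2 kb in R1.

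At Gata2, 4 H3K4me3 regions in each line were spread over the H3K27me3. In CGR8 they had scores of 166, 222, 139 and 237 in map order, at percentiles 38.8, 43.7, 35.8 and 44.6. In R1 the third and the fourth were called as a single region from 88146201 to 88150600 (4.4 kb, score 513, percentile 55.3). The 2 CGR8 regions at that place were 400 bp apart, the smallest gap found in the H3K4me3 lists, so their split was at the limit of the calling. The last R1 region, from 88154201 to 88155000 (score 47.2), had no CGR8 partner. The region at 88143401 to 88144600 was called with the same bounds in both lines.

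Gata3 had 7 H3K4me3 regions in each line, of which 5 lay wholly under H3K27me3 and 2 lay outside it. The top region ran from 9797401 to 9801400 in CGR8 (4.0 kb, score 986, percentile 69.1) and from 9797801 to 9801600 in R1 (3.8 kb, score 1124, percentile 71.9). Every other Gata3 region was below percentile 50 in both lines. In CGR8 the regions from 9802401 to 9803600 and from 9804001 to 9806000 stood where R1 had a single region, from 9802401 to 9806400. An outside region found in both lines ended at 9775400, 14.6 kb before H3K27me3 in CGR8 and 19.4 kb in R1, where H3K27me3 began later. The other outside regions, 9.4 kb before H3K27me3 in CGR8 and 16.4 kb in R1, lay at different places and had no partner. Scores of the outside regions were 42.6 to 58.1. The noncoding genes 4930412O13Rik and 9230102O04Rik overlap Gata3 in the GRCm38.p6 table, and a histone mark does not tell overlapping genes apart.

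Tfap2a had 8 H3K4me3 regions in each line and the widest of all members. It ran from 40823201 to 40830400 in CGR8 (7.2 kb, score 1129) and from 40823401 to 40830400 in R1 (7.0 kb, score 1327), wholly under the second H3K27me3 region. Its width was at percentile 98.7 in CGR8 and 98.8 in R1, and its score at percentiles 72.8 and 76.4. The next strongest, from 40817601 to 40819600 in CGR8 (score 630, percentile 60.0) and to 40819400 in R1 (score 592, percentile 57.7), lay in the gap between the H3K27me3 regions. In CGR8 it was 1.8 kb away from H3K27me3, and in R1, where H3K27me3 began earlier, 22.2% of it was covered. H3K4me3 regions covered 61.7% of the 12 kb gap in CGR8 and 50% of the 9.6 kb gap in R1. Of the 8 regions, 5 lay wholly under H3K27me3 in each line, 1 partly and 2 outside in CGR8, and 2 partly and 1 outside in R1. The noncoding gene Gm26688 overlaps Tfap2a in the gene table, as Gm38708 does Gata2.

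**Figure D3:**
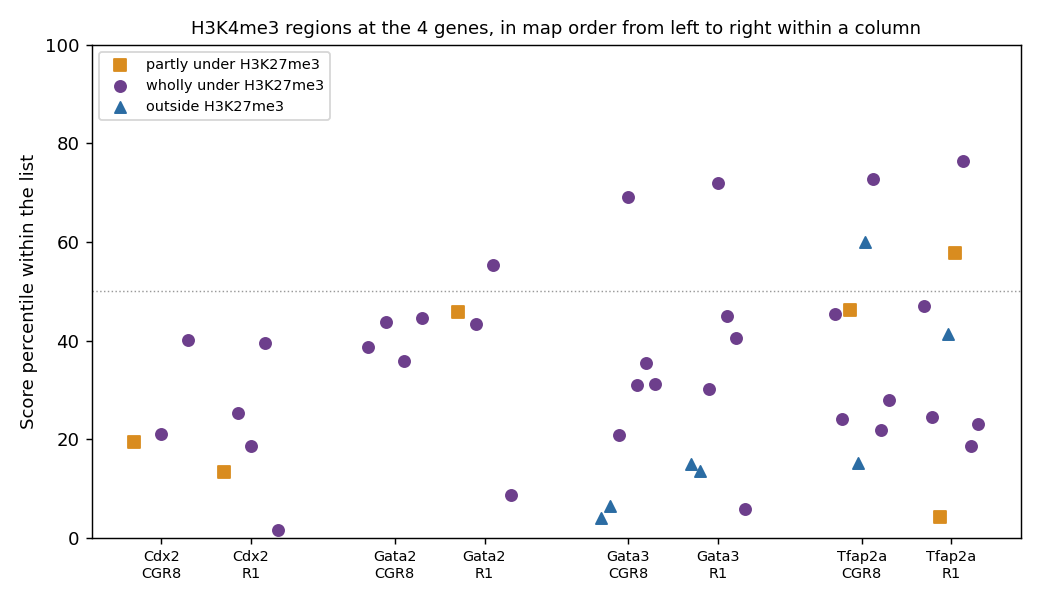
Score percentile within its list of every H3K4me3 region at the 4 genes, by gene and line, with the symbol showing whether the region lay wholly under, partly under or outside H3K27me3. The dotted line is the 50th percentile, and 7 points, at Gata2, Gata3 and Tfap2a, lie above it.

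The order of the genes by H3K4me3 score per kb depended on which region stood for a gene. With the region of the highest total score, Gata3 had 247 per kb in CGR8 and 296 in R1, Tfap2a 157 and 190, Cdx2 88.7 and 101, and Gata2 78.8 and 117, so that Cdx2 and Gata2 changed places between lines. With the region of the highest score per kb, the order was Tfap2a, Gata3, Gata2 and Cdx2 in both lines. Tfap2a then had 315 and 329 per kb, at the region in the gap between its H3K27me3 regions, and Gata2 185 and 194, at the region with the same bounds in both lines. Gata3 and Cdx2 kept the same regions. Set against regions of similar width, the top H3K4me3 regions of all 4 genes had scores in the lower part, at percentiles 34.6 and 36.4 for Cdx2, 20.5 and 16.1 for Gata2, 33.0 and 33.0 for Gata3, and 17.4 and 16.9 for Tfap2a, in CGR8 and R1. Among the H3K4me3 regions that overlap H3K27me3, the same regions were at percentiles 35.2 and 32.7 for Cdx2, 41.7 and 58.1 for Gata2, 78.5 and 80.9 for Gata3, and 82.4 and 85.4 for Tfap2a. The top H3K27me3 region of each gene, ranked among H3K27me3 regions that overlap H3K4me3, was between percentiles 96.9 and 99.2.

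The share of the H3K27me3 cover that also held H3K4me3 set Cdx2 apart from the other genes in both lines. At Cdx2 it was 13.0% in CGR8 and 16.3% in R1, with 4.4 and 5.6 kb of both marks. At Gata2 it was 32.5% and 34.3% (7.8 and 7.4 kb), at Gata3 32.1% and 48.0% (10 and 12 kb), and at Tfap2a 40.0% and 35.2% (14.4 and 13.6 kb). The range over lines at Gata3 overlapped those at Gata2 and Tfap2a, which did not overlap each other, and the range at Cdx2 overlapped none of them. This difference was not tested.

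**Figure D4:**
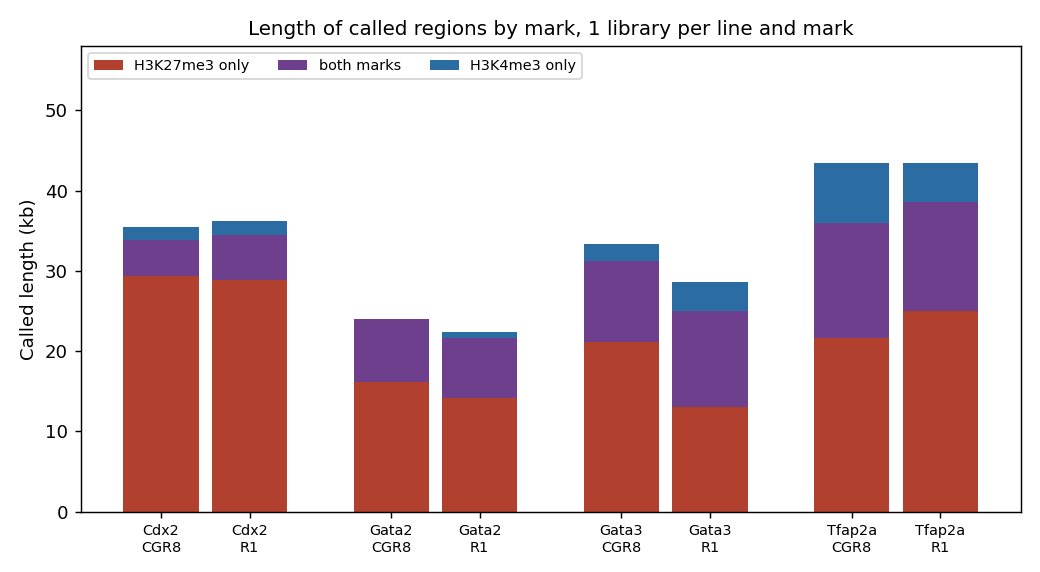
Called length in kb at each gene and line, divided into bases with H3K27me3 alone, both marks and H3K4me3 alone. Cdx2 has 4.4 and 5.6 kb with both marks, and Tfap2a has 14.4 and 13.6 kb.

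H3K27me3 regions of similar width across the genome gave the same contrast. For the Cdx2 region, the median H3K4me3 share of such regions was 8.82% in CGR8 and 13.6% in R1, and the Cdx2 share was at percentiles 71.9 and 61.3. The Gata3 region was at percentiles 98.7 and 100, against medians of 8.81% and 12.8%. The Gata2 region of 24.0 kb in CGR8 was at 98.3 and that of 17.8 kb in R1 at 98.4. The 3.8 kb Gata2 region of R1 held no H3K4me3, like 58.4% of regions of similar width. The second Tfap2a region was at 99.9 and 97.6, and the first at 97.3 and 92.6. Regions of similar width to the top ones held a median of 1 to 2 H3K4me3 regions, while the top region at the 4 genes held 3 to 5.

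**Figure D5:**
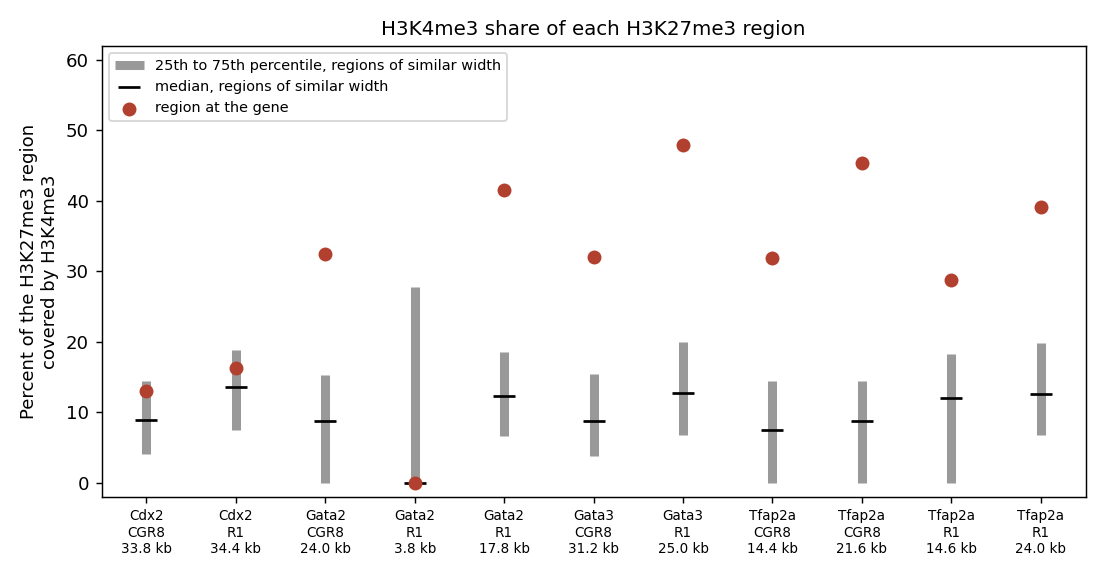
Percent of each H3K27me3 region covered by H3K4me3 (red points), with the median (black) and the 25th to 75th percentile (grey) of regions 0.8 to 1.2 times as wide in the same list. The Cdx2 points lie within the grey range, and the Gata3 points, at 32.1% and 48.0%, and the Tfap2a points lie above it. At Gata2 the 24.0 kb region of CGR8 and the 17.8 kb region of R1 lie above it, and the 3.8 kb region of R1, at 0%, lies within it.

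Bases with both marks in both lines fell into 18 stretches, 32.0 kb in all. Cdx2 had 3 stretches (3.4 kb), Gata2 4 (6.2 kb), Gata3 5 (9.4 kb) and Tfap2a 6 (13.0 kb). The longest was at Tfap2a from 40823401 to 40830400 (7.0 kb), followed by Gata3 from 9797801 to 9801400 (3.6 kb) and Gata2 from 88148001 to 88150600 (2.6 kb). The longest at Cdx2 ran from 148117401 to 148119200 (1.8 kb). The median stretch was 1300 bp and the shortest 400 bp. Region lists cannot tell marks on one nucleosome from marks in different cells.

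Most member H3K4me3 regions with a single counterpart had bounds close to those in the other line. Of 15 such pairs, 11 had both bounds within 200 bp, the grid of the calls, and 2 had identical bounds. These pairs leave out regions that were split, merged or called in a single line. Neither these counts nor the shares and percentile shifts that follow were computed over the whole lists. Whether members differ from H3K4me3 regions in general was therefore not tested. Over all member H3K4me3 regions, the bases called in both lines were 63.4% of those in either at Cdx2 and 77.8% at Gata2. The share was 59.8% at Gata3 and 82.7% at Tfap2a. Within the pairs, the score percentile was higher in R1 for 9 of the 15. The largest rise, 11.1 percentile points, was at the weak first Gata3 region, and the percentile of the first Cdx2 region dropped by 6.09, the most of any. Regions without a counterpart numbered 7, of which 5 were called in R1 (2 at Cdx2, 1 at Gata2 and 2 at Gata3) and 2 in CGR8 (1 at Gata3 and 1 at Tfap2a). Their scores were 38.9 to 66.0, at percentiles 1.56 to 18.5 of their lists.

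The windows cut through broad domains, and the regions just outside them were examined once. Before the Cdx2 window lay an H3K27me3 region from 148073401 to 148096000 in CGR8 (22.6 kb, percentile 98.5) and to 148094600 in R1 (21.2 kb, percentile 98.2), 4.0 and 5.4 kb away. Before the Tfap2a window, at 6.6 and 6.2 kb, the nearest H3K27me3 regions were 5.8 and 8.0 kb wide and at percentiles 14.3 and 16.9. After the Gata2 window, a CGR8 region of 16.8 kb (percentile 74.0) lay 7.8 kb away, and the nearest in R1 was 324.4 kb away. The H3K4me3 region nearest to any window, before that of Cdx2, was 10.4 kb away in CGR8 and 10.2 kb in R1.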

How the data were processed

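H3K27me3 and H3K4me3 were profiled by ChIP-seq in 1 library each of CGR8 and R1 rosette stem cells. The authors deposited 1 region list per library with a position and a score, which has no stated unit or formula. Bowtie2 2.0.2, SICER 1.1, bedtools 2.20.1 and build mm9 are named in the submitters' processing notes; their settings, any control library and the calling threshold: not given in the sources used here. Per the labels' protocols both antibodies came from one supplier, while the H3K27me3 samples' characteristics name another.

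Starts and ends were counted from 1. Bounds lie on a 200 bp grid. Neighbouring H3K27me3 regions are at least 800 bp apart and H3K4me3 regions at least 400 bp, so narrower gaps count as covered, more so for H3K27me3. Overlap meant at least 1 bp. Scores were used as percentiles within a list (share of its regions scoring no higher) and per kb. Regions at least 0.8 and at most 1.2 times as wide served as those of similar width, a range chosen after seeing the data. The named genes were the 4 members, all reported. Members, windows and lists were chosen with earlier results of these data known. Promoter sequences and gene neighbours came from RefSeq tables on GRCm38.p6. A list of 18 other trophoblast genes needed an mm9 annotation for its marks, so only its promoters were used. The overlap code was tested on simulated lists. Alternatives were stricter overlap, the higher-scoring 50%, lists of equal length, merging of gaps under 1000 bp, clipped or extended windows, other rankings and leaving out a line. Python 3.11.15, numpy 2.4.6, pandas 2.3.3 and matplotlib 3.10.9 were used.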

Additional observations from a re-analysis of the deposited data

How the results depend on the processing

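The number of the 4 genes with both marks in both lines was 2 in the higher-scoring 50% of each list, where the shorter H3K4me3 lists held no region at Cdx2 and none at Gata2 in CGR8. It was 4 with lists of equal length and with at least 50% of the H3K4me3 bases covered. Merging gaps under 1000 bp, and the settings without replicate 1 or without replicate 2 (4 to 4), could not lower it by construction. Lengths, shares and percentiles per gene gave 120 values under the alternatives, of which 96 moved by no more than the SD over the lines and 24 by more. Leaving out a line gave 40 of the 96 and moves a mean of 2 lines by less than its SD by construction. Ranking among regions of similar width moved all 8 percentiles, that of the top Tfap2a H3K4me3 region from 74.6 to 17.1. The order of the genes by kb of H3K27me3 changed with the window. Extending it by 10 kb brought the Cdx2 H3K27me3 from 34.1 to 56 kb, because it took in the next region, and clipping to the window to 24.7 kb. No value could be had in the higher-scoring 50% for H3K4me3 at Cdx2 and Gata2. No paired analysis was possible because no result came from a test. The marks were overlapped within each line. Read depth is not known, so which regions near the lowest scores would be called at another depth cannot be told.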

Other observations

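Of 18 further genes linked to the trophoblast, Hand1, Tead4, Tfap2c and Dlx3 were not found in the promoter table. The other 14, among them Eomes, Elf5, Ascl2 and Gcm1, were found with 16 start sites. The 250 bases before these starts held a median of 8 CG dinucleotides, from 1 to 25, and 9 of the 16 were above the median of all promoters, which was 6. The 6 start sites of Cdx2, Gata2, Gata3 and Tfap2a held 10 to 24. The marks of these 18 genes were not analysed here.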
